A study of Mus musculus with 56 samples.

Results

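The CYP4A fatty acid hydroxylases are the enzymes examined here, as liver mRNA in female mice whose feeding was confined to the light or to the dark phase. The 6 members, Cyp4a10, Cyp4a14, Cyp4a31, Cyp4a32, Cyp4a12a and Cyp4a12b, were taken by name from the 25415 genes of the deposited liver table, and all 6 were among the 24046 genes tested. The names, and no measured value, chose them, although earlier results of these data were known. The 56 libraries came from C57BL/6J female mice aged 9 weeks, which ate normal chow ad libitum for 7 days and then spent 7 days under restricted feeding in 12 h of light and 12 h of dark. Food was offered in the light phase under daytime-restricted feeding (DRF) or in the dark phase under nighttime-restricted feeding (NRF), which was the reference. Zeitgeber time (ZT) counts hours from the start of the light phase, and livers were taken every 4 h from ZT0 to ZT24, from 4 animals in each of the 14 groups. Each animal gave 1 sample at 1 time, so the curves over the day connect different animals, and all were female.

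CYP4A enzymes add a hydroxyl group to the terminal, or omega, carbon of medium- and long-chain fatty acids, the first step of omega-oxidation. Dicarboxylic acids made in this way are shortened in peroxisomes. In rodent liver Cyp4a10 and Cyp4a14 are classical targets of the nuclear receptor PPARα and rise when fatty acids reach the liver, as in fasting. Cyp4a12a, which also makes a vasoactive hydroxylated product of arachidonic acid in the kidney, and its close copy Cyp4a12b are expressed mainly in males. Cyp4a31 and Cyp4a32 are less studied.

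The 6 genes lie in a cluster on chromosome 4 (GRCm38), each with 12 coding exons. Cyp4a12a (ENSMUSG00000066071) spans chr4:115299046-115332815 and Cyp4a12b (ENSMUSG00000078597) chr4:115411624-115439034, both on the plus strand. Cyp4a14 (ENSMUSG00000028715), at chr4:115486200-115496142, is the 1 member on the minus strand. Cyp4a10 (ENSMUSG00000066072) follows at chr4:115518264-115533649, Cyp4a31 (ENSMUSG00000028712) at chr4:115563649-115579015 and Cyp4a32 (ENSMUSG00000063929) at chr4:115600969-115621602, all on the plus strand. No exon of a member overlapped an exon of another gene.

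The likeness of the copies limits how well their RNA can be told apart. Over the coding sequence Cyp4a10 was 96.6% identical to Cyp4a31 and 97.2% identical to Cyp4a32, and Cyp4a12a was 98.5% identical to Cyp4a12b, with 23 differences. Cyp4a14 was 75.1% identical to Cyp4a10. The next lines show 47 bases of exon 11 that hold the start of the heme-binding signature shared by these enzymes, with the codons of the signature beginning at base 31 and with capitals where a member differs from Cyp4a10. They are printed because Cyp4a10, Cyp4a31 and Cyp4a32 cannot be distinguished there and Cyp4a14 can, and all sequences are 5′ to 3′ from the GENCODE transcripts of GRCm38.
Cyp4a10, chr4:115529472-115529518, plus strand: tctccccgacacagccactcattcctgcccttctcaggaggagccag
Cyp4a31, chr4:115574920-115574966, plus strand: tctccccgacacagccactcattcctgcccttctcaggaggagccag
Cyp4a32, chr4:115614850-115614896, plus strand: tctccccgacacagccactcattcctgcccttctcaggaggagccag
Cyp4a12a, chr4:115328956-115329002, plus strand: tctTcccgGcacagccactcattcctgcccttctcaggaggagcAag
Cyp4a12b, chr4:115435210-115435256, plus strand: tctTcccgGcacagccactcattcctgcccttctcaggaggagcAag
Cyp4a14, chr4:115489789-115489835, minus strand: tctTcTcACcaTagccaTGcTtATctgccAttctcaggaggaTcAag
Cyp4a14 differed from Cyp4a10 at 13 of these bases, Cyp4a12a and Cyp4a12b each at 3, and Cyp4a31 and Cyp4a32 at 0.

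The Cyp4a10 group was easier to resolve in exon 2. The following 90 bases are the stretch of one exon in which the 3 copies differed most, again with capitals for differences from Cyp4a10.
Cyp4a10, chr4:115519630-115519719, plus strand: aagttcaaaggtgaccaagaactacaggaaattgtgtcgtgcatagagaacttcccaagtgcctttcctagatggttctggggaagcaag
Cyp4a31, chr4:115565010-115565099, plus strand: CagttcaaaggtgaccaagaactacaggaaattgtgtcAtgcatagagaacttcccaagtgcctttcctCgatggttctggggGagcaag
Cyp4a32, chr4:115602260-115602349, plus strand: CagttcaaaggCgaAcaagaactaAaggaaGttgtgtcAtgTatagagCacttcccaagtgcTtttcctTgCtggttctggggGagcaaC
Cyp4a31 differed from Cyp4a10 at 4 of the 90 bases, Cyp4a32 differed from Cyp4a10 at 13, and Cyp4a31 and Cyp4a32 differed from each other at 10. The most different 90 bases of the Cyp4a12 pair lie in exon 6 and follow, with capitals where Cyp4a12b differs from Cyp4a12a, at 7 bases.
Cyp4a12a, chr4:115326659-115326748, plus strand: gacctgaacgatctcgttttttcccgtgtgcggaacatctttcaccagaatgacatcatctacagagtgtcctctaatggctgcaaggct
Cyp4a12b, chr4:115432912-115433001, plus strand: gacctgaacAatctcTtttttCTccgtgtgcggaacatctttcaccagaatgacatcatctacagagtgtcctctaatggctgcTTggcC
The longest run without a difference was 342 bases between Cyp4a12a and Cyp4a12b, 186 between Cyp4a10 and Cyp4a31, and 41 at most between Cyp4a14 and any other member. Of all 150-base windows, the length of 1 sequenced end, 25.6% of those in Cyp4a12a and 25.9% in Cyp4a12b had an exact copy in another member, against 8.0% in Cyp4a32, 4.3% in Cyp4a10, 4.2% in Cyp4a31 and 0.0% in Cyp4a14. How the authors counted reads that fit several places is not given in the sources used here. The split within the Cyp4a12 pair and within the Cyp4a10 group is therefore uncertain. Of the Cyp4a10 windows, 1.9% had an exact copy in Cyp4a31 and 2.4% in Cyp4a32. Cyp4a10 was far more abundant than both, at the levels given below, and the part of such reads in the Cyp4a31 and Cyp4a32 values was not tested. No exact copy of this length linked Cyp4a14 to another member.

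Levels are given as scaled counts. The deposited gene values were a logarithm-like transform of counts, and the counts were recovered from it, so a scaled count is a recovered count after the authors' scaling between libraries, and levels of different genes are compared only per kilobase of exon. Over the 24046 genes, recovered counts summed to between 325528867 and 731336387 per library (median 514864392), and to between 169417770 and 395244315 without the 118 genes too abundant to be judged whole, which is more than the depth the study states, and whether 1 recovered count is 1 read was not established. All 56 libraries carried the hepatocyte markers at high levels, Cfd, the 1 of 4 adipocyte markers among the genes tested, stayed at or below 0.0657 scaled counts, and no kidney tubule marker was among the genes tested. The replicate 3 library of NRF ZT16 stood apart from the rest, with an SD of its deviations from the group mean of 0.393 on the log2 scale against 0.335 in the next library and 0.226 in the median library, and it is kept in the values that follow. Leaving it out changed no call on a member.

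The members differed widely in level. Per kilobase, over all 56 libraries, Cyp4a10 stood at 422 ± 152 scaled counts (SD, n = 56) and Cyp4a14 at 195 ± 87.7. Cyp4a32 followed at 24.1 ± 5.60, then Cyp4a31 at 11.4 ± 3.77. The Cyp4a12 pair was very low in these females, at 0.806 ± 0.899 for Cyp4a12a and 0.204 ± 0.250 for Cyp4a12b. Cyp4a12b was listed at 0 in 4 libraries, where 0 recovered counts allow up to 3, or between 0.00506 and 0.00657 scaled counts, for counting error only.

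Cyp4a10, the most abundant member, ran higher under DRF. Its 28 DRF libraries ranged from 766 to 1753.2 scaled counts with a median of 1012.8, and its 28 NRF libraries from 312 to 1192.0 with a median of 672. The means were 1095.4 ± 275 and 685 ± 214 (SD, n = 28 each), and all 28 DRF libraries lay above the NRF median. By group, the highest mean was at DRF ZT0, 1287.7 ± 397 (SD, n = 4), and the lowest at NRF ZT20, 579 ± 195. Each of the 7 DRF means was above each of the 7 NRF means, yet no neighbours in the order of the 14 groups were separated without overlap of their animals. Compared only at the same time, the log2 mean was higher under DRF at all 7 times, as for 1.43% of all genes. The shares of all genes with every DRF mean above every NRF mean, or with all DRF libraries above the NRF median, were not counted.

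Cyp4a14 showed a larger ratio of DRF to NRF means than Cyp4a10, 1.83 against 1.60. Its DRF libraries ranged from 399 to 1169.2 scaled counts with a median of 611, and its NRF libraries from 128 to 798 with a median of 320. The means were 656 ± 185 under DRF and 358 ± 161 under NRF (SD, n = 28 each). Again all 28 DRF libraries exceeded the NRF median, and the 7 DRF means were all above the 7 NRF means, from 836 ± 230 at DRF ZT20 (SD, n = 4) down to 258 ± 91.2 at NRF ZT20. Among the 14 groups no neighbours were free of overlap. The shares of all genes with these separations of the regimens were not counted.

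Cyp4a31 also stood higher under DRF. Its DRF libraries lay between 23.3 and 48.8 scaled counts (median 31.9) and its NRF libraries between 11.6 and 43.0 (median 20.8), with 28 of 28 DRF libraries above the NRF median. How many of all genes had such a separation was not counted. Cyp4a32 did not separate in this way. Its DRF libraries lay between 27.8 and 57.0 scaled counts (median 36.8) and its NRF libraries between 19.0 and 53.0 (median 33.7), and 19 of 28 DRF libraries were above the NRF median. The regimens overlapped over nearly their whole ranges for the Cyp4a12 pair. Cyp4a12a ranged from 0.123 to 7.31 under DRF and from 0.109 to 10.8 under NRF, and Cyp4a12b from 0 to 1.48 and from 0 to 3.05.

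**Figure D1:**
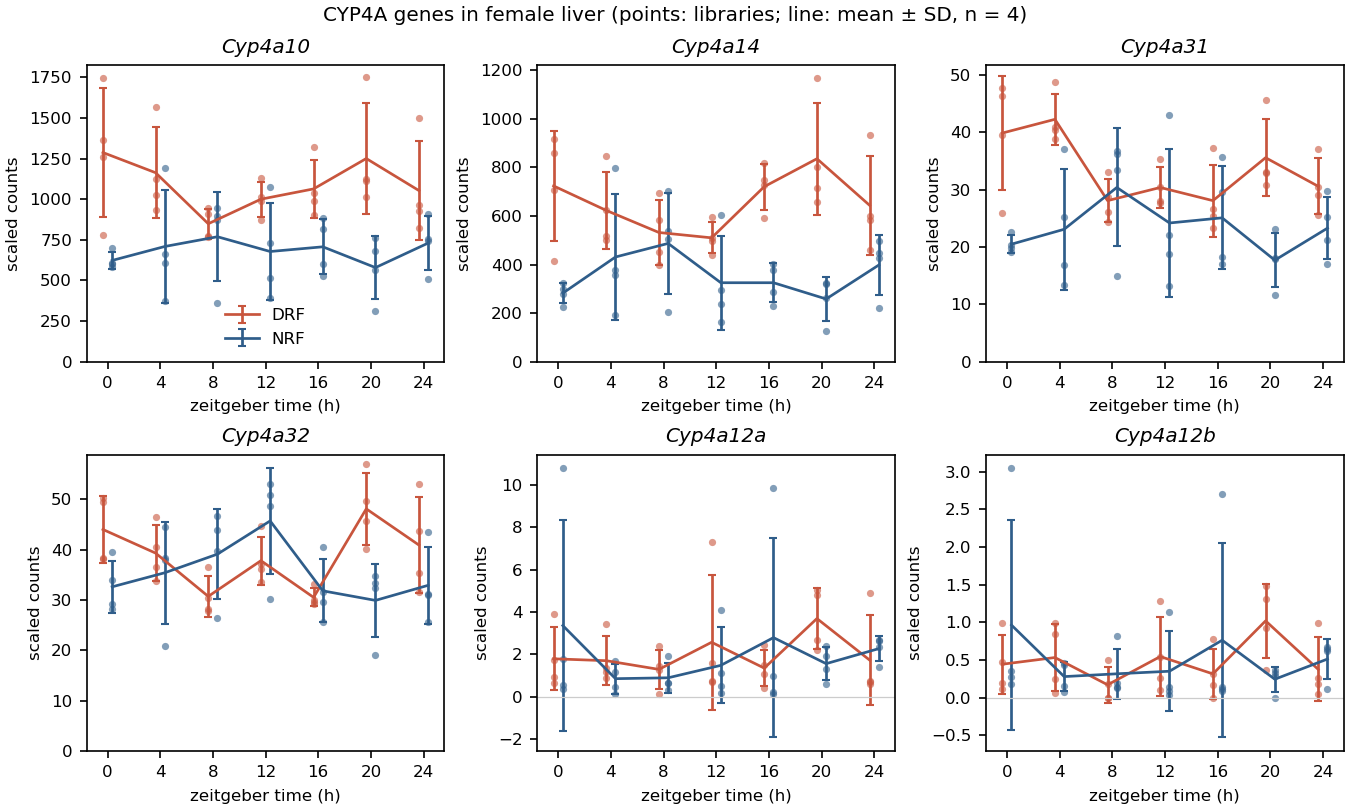
Scaled counts of the 6 CYP4A genes (y axis, linear) against zeitgeber time in hours (x axis) under DRF and NRF, with points for single animals and lines with bars for the mean ± SD of 4 animals. The DRF means of Cyp4a10 and Cyp4a14 lie above the NRF means at all 7 times, and for Cyp4a12a 1 NRF animal reaches 10.8.

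To ask whether the level over the whole day differed, the rhythm-adjusted mean (MESOR) was compared between regimens in a joint 24-h cosine fit across all genes. Cyp4a14, Cyp4a10 and Cyp4a31 were higher under DRF, while Cyp4a32, Cyp4a12a and Cyp4a12b did not pass the test. Across all 24046 genes 6.98% passed, 4.29% passed as higher under DRF, and 0.482% passed with a difference of at least 0.5 on the log2 scale. Cyp4a14 differed by 0.92 ± 0.13 (log2, SE), a 1.90-fold difference, with an adjusted p of 1.63e-06 (limma with Benjamini-Hochberg adjustment). Cyp4a10 differed by 0.68 ± 0.11, or 1.61-fold, with an adjusted p of 1.62e-05, and Cyp4a31 by 0.50 ± 0.11, or 1.41-fold, with an adjusted p of 9.77e-04. Ranked by p, these were the genes at places 100, 168 and 437. Cyp4a31 shares windows with the far more abundant Cyp4a10, and the part of such reads in its difference was not tested. On the compressed scale of the deposited values the differences of Cyp4a14, Cyp4a10 and Cyp4a31 were 0.16, 0.11 and 0.17 and still passed the test.

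Cyp4a32, 97.2% identical to Cyp4a10, differed by 0.09 ± 0.08 (log2, SE), with an interval of 2 SE from -0.07 to 0.25 and an adjusted p of 0.582. That interval lay below the one for Cyp4a10, which ran from 0.46 to 0.91, but the difference between the genes was not tested. For Cyp4a12a the difference was 0.22 ± 0.22 (adjusted p = 0.640, limma), with an interval from -0.22 to 0.65, and for Cyp4a12b it was 0.04 ± 0.12 (adjusted p = 0.904). The pair averaged 1.95 and 0.489 scaled counts, near or below the 1 added before the logarithm. Their log2 differences are therefore compressed, depend on that added 1 and cannot be read as fold differences.

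**Figure D2:**
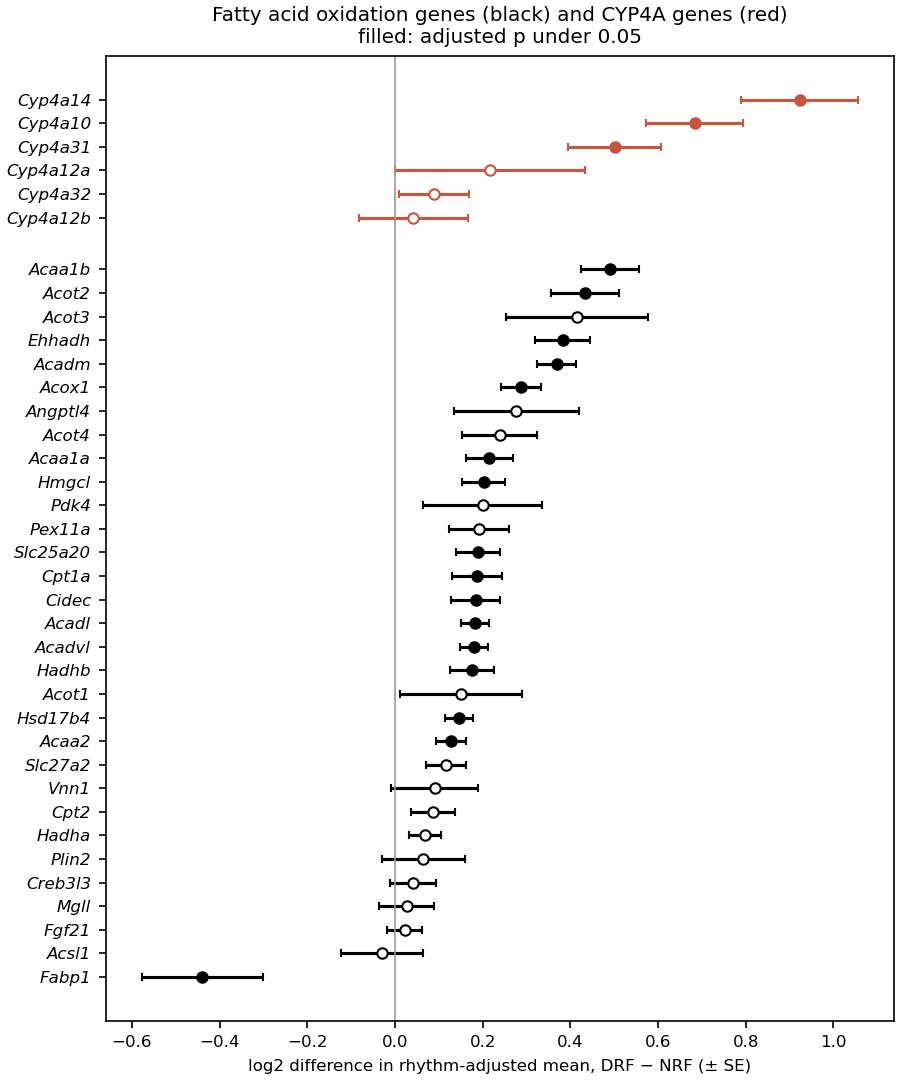
Difference in rhythm-adjusted mean between DRF and NRF, in log2 units, for the 6 CYP4A genes (red) and the 32 PPARα targets of fatty acid oxidation and ketogenesis (black, 1 of them not shown), with bars of ± SE and filled points where the adjusted p was under 0.05. Cyp4a14 (0.92), Cyp4a10 (0.68) and Cyp4a31 (0.50) are filled and to the right of 0, Cyp4a32 lies at 0.09 and Fabp1 at -0.44.

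These are whole livers, in which fewer cells of a type and less RNA per cell cannot be told apart. Markers of periportal hepatocytes moved with the regimen as well: 6 of 6 passed with a higher rhythm-adjusted mean under DRF, beside 4.29% of all genes. Among them were Ass1 by 0.33, Sds by 0.52 and Cyp2f2 by 0.13 (log2). Their summed level ranged from 8496.1 to 18602.9 scaled counts under DRF (median 13028.0) and from 6479.4 to 14621.7 under NRF (median 10943.4). Of 6 general hepatocyte markers 2 passed, 1 higher and 1 lower, and 0 without the library that stood apart. Of 6 pericentral markers 1 passed, Oat, higher by 0.71, and none of the markers of Kupffer cells, endothelium, stellate cells, cholangiocytes or lymphocytes passed. The part of these markers in the CYP4A differences was not tested.

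At single times the calls fell at ZT16, ZT20, ZT0 and ZT4, and none fell at ZT24, which is the clock time of ZT0 in other animals. Of 42 comparisons of 6 genes at 7 times, 10 passed, all with DRF higher. ZT20 gave the most, with 4 of 6 members passing where 7.99% of all genes passed as higher under DRF. ZT0 gave 3 of 6 (all genes 8.09%), ZT4 gave 2 (11.3%) and ZT16 gave 1 (9.05%). No member passed at ZT8, where 5.87% of all genes did, at ZT12 (7.30%) or at ZT24 (7.21%).

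At ZT20, 8 h into the dark phase, Cyp4a10, Cyp4a14, Cyp4a31 and Cyp4a32 had their largest differences between regimens. Cyp4a14 read 717, 1169.2, 802 and 658 scaled counts in the 4 DRF livers and 128, 262, 319 and 325 in the 4 NRF livers. The lowest DRF value was above the highest NRF value, as it was for 10.3% of all genes at this time with DRF higher. The difference was 1.74 ± 0.36 on the log2 scale (SE), or 3.35-fold, with an adjusted p of 3.61e-04 (limma). Cyp4a10 read 1014.5, 1753.2, 1125.9 and 1109.5 under DRF and 312, 564, 680 and 759 under NRF, again without overlap, a difference of 1.15 ± 0.30 (adjusted p = 0.00547, limma). Cyp4a31 read 30.8, 45.6, 33.0 and 33.1 against 11.6, 18.1, 23.2 and 17.9, and Cyp4a32 read 49.6, 57.0, 40.1 and 45.6 against 19.0, 33.4, 34.8 and 32.3. Both pairs of groups were apart, by 0.99 ± 0.27 for Cyp4a31 (adjusted p = 0.00891) and 0.69 ± 0.20 for Cyp4a32 (adjusted p = 0.0130). The DRF replicate 2 liver was the highest and the NRF replicate 1 liver the lowest for all 4 genes. Without the replicate 1 libraries the adjusted p at ZT20 was 0.0543 for Cyp4a10, 0.0541 for Cyp4a31 and 0.181 for Cyp4a32, and without the replicate 2 libraries it was 0.0916, 0.111 and 0.0611, while Cyp4a14 passed without any 1 replicate.

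At ZT0 Cyp4a14 read 916, 707, 414 and 859 scaled counts under DRF and 300, 280, 322 and 227 under NRF, a difference of 1.31 ± 0.36 (adjusted p = 0.00731, limma) without overlap. Such a separation with DRF higher was found in 9.84% of all genes at this time. Cyp4a10 read 1744.6, 1258.7, 780 and 1367.2 under DRF and 582, 602, 702 and 606 under NRF, a difference of 0.99 ± 0.30 (adjusted p = 0.0164). Cyp4a31 differed by 0.90 ± 0.27 (adjusted p = 0.0175). The NRF livers were close together at this time and the DRF livers were spread, with replicate 3 the lowest for all 3 genes. Some of these calls at ZT0 were lost without 1 replicate: without the replicate 4 libraries the adjusted p was 0.118 for Cyp4a14, 0.112 for Cyp4a10 and 0.151 for Cyp4a31, and without replicate 1 or replicate 2 it was over 0.05 for Cyp4a10 (0.121 and 0.0891) and Cyp4a31 (0.0832 and 0.104).

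Fewer members were called at ZT4 and ZT16, all of them called at ZT20 as well. At ZT4 Cyp4a31 read 40.4, 40.9, 38.9 and 48.8 under DRF and 16.8, 13.3, 37.2 and 25.2 under NRF, a difference of 0.94 ± 0.27 (adjusted p = 0.00988, limma). The groups just missed each other, as they did with DRF higher for 12.3% of all genes. Cyp4a10 at ZT4 differed by 0.81 ± 0.30 with an adjusted p of 0.0485, while Cyp4a14, at 0.68 ± 0.36, had an adjusted p of 0.187. At ZT16 Cyp4a14 read 819, 728, 747 and 591 under DRF and 378, 229, 404 and 287 under NRF, without overlap (9.38% of all genes) and with a difference of 1.18 ± 0.36 (adjusted p = 0.0186). The ZT4 call for Cyp4a31 was lost without replicate 2 (adjusted p = 0.159) or replicate 4 (0.0677), that for Cyp4a10 without replicate 1, 2 or 4 (0.0682, 0.358 and 0.324), with median-of-ratios scaling (0.0515), with a trend over exon length removed (0.0781) and with the replicate number as a block (0.0546), and the ZT16 call for Cyp4a14 without replicate 2 or 4 (0.125 and 0.0731).

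For Cyp4a10 and Cyp4a14 the gap was narrowest at ZT8. Cyp4a10 averaged 849 ± 91.1 scaled counts under DRF and 769 ± 273 under NRF (SD, n = 4 each), a difference of 0.23 ± 0.30 on the log2 scale with an interval of 2 SE from -0.37 to 0.83. Cyp4a14 averaged 532 ± 133 and 487 ± 207, a difference of 0.23 ± 0.36. The DRF means of both genes were near their lowest at this time and the NRF means at their highest. ZT24, the same clock time as ZT0 in other animals, gave smaller differences than ZT0, 0.71 ± 0.36 for Cyp4a14 (adjusted p = 0.212, limma) and 0.52 ± 0.30 for Cyp4a10 (adjusted p = 0.302). Within a regimen, ZT24 against ZT0 gave 0 of 12 calls for the 6 members, where 3.25% of all genes passed under DRF and 8.32% under NRF. Among the 12, 0 had an unadjusted p under 0.05.

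**Figure D3:**
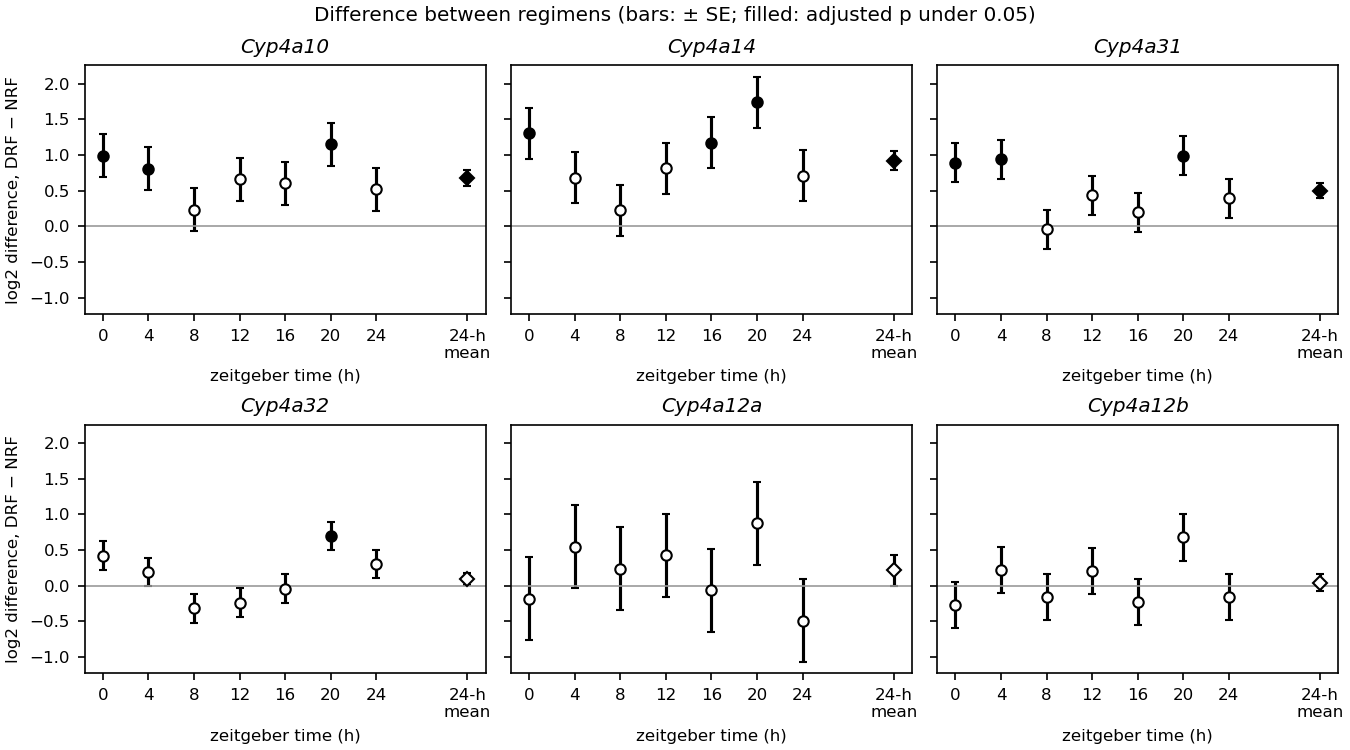
Difference between DRF and NRF in log2(scaled count + 1) (y axis) at each zeitgeber time in hours (x axis) for the 6 members, beside the difference in rhythm-adjusted mean, with bars of ± SE and filled points where the adjusted p was under 0.05. Cyp4a14 reaches 1.74 at ZT20 and falls to 0.23 at ZT8.

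At the same clock time 1 regimen is in its feeding phase and the other outside it, so the regimens were also compared at matched hours since food was given, with each DRF time set against the NRF time 12 h later. The estimates for Cyp4a10 and Cyp4a14 were above 0 in all 6 pairs, from 0.48 to 0.97 and from 0.41 to 1.26 on the log2 scale. Of 36 comparisons 3 passed. Cyp4a14 passed at DRF ZT0 against NRF ZT12, with 1.26 ± 0.36 (adjusted p = 0.0404, limma), where 1.35% of all genes passed as higher under DRF. It also passed at DRF ZT8 against NRF ZT20, with 1.09 ± 0.36 (adjusted p = 0.0376, background 6.78%). Cyp4a31 passed at DRF ZT4 against NRF ZT16, with 0.79 ± 0.27 (adjusted p = 0.0438, background 9.25%). The pairs DRF ZT12 with NRF ZT24, DRF ZT16 with NRF ZT4 and DRF ZT20 with NRF ZT8 gave none, where 0.857%, 9.91% and 8.17% of all genes passed as higher. Which hours passed depended on the scale. On the compressed scale of the deposited values 0 of the 3 calls remained, with adjusted p values of 0.102, 0.173 and 0.147 in the order above, and 5 others passed. These were Cyp4a10 (0.0124) and Cyp4a14 (0.0127) at DRF ZT16 against NRF ZT4, and Cyp4a10 (0.00402), Cyp4a14 (0.0106) and Cyp4a32 (0.0415) at DRF ZT20 against NRF ZT8. Leaving out replicate 2 or replicate 4 left 0 of the 3 calls and replicate 1 left 1, and without replicate 3 there were 6 calls, 2 of them among the 3.

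A 24-h cosine was called for a pair of members under DRF and for none under NRF. Under DRF the 24-h cosine was called for Cyp4a32 (adjusted p = 0.0239, limma), with a peak-to-trough distance of 0.43 on the log2 scale, and for Cyp4a14 (adjusted p = 0.0344), with 0.61. That is 2 of 6, near the 38.6% of all genes that were called. Cyp4a31 had an adjusted p of 0.0841, but 0.0239 in an F test over the 7 times and 0.0126 without ZT24, and Cyp4a10 had 0.166, but 0.0219 on the scale of the deposited values. Under NRF no member was called, where 39.0% of all genes were, and the lowest adjusted p was that of Cyp4a32, 0.108, with an unadjusted p of 0.0513. Ranks compared with cosine templates by Kendall's exact test gave no call for the 6 under DRF, with adjusted p values of 0.0571 for Cyp4a32 and 0.0715 for Cyp4a14. Without the replicate 1 libraries the DRF rhythm had an adjusted p of 0.307 for Cyp4a32 and 0.354 for Cyp4a14.

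The rhythms of the same 2 genes differed between regimens. The test of the difference gave an adjusted p of 0.0034 for Cyp4a32 and 0.0325 for Cyp4a14 (limma), 2 of 6 members beside 39.1% of all genes. Fitted to scaled counts, Cyp4a32 peaked at ZT 22.4 ± 1.26 h (SE) under DRF and at ZT 9.48 ± 1.41 h under NRF, 11.1 ± 1.89 h apart, with amplitudes of 6.07 ± 1.84 and 6.02 ± 2.15 scaled counts. Cyp4a14 peaked at ZT 20.3 ± 1.17 h and ZT 6.65 ± 1.52 h, 10.4 ± 1.92 h apart, with amplitudes of 141 ± 45.3 and 98.0 ± 44.0. The NRF peaks of both genes come from cosines that did not pass the test. For Cyp4a10 the fitted peaks were ZT 21.7 ± 1.78 h and ZT 7.73 ± 3.53 h and for Cyp4a31 ZT 1.53 ± 1.54 h and ZT 8.90 ± 2.01 h, without a called difference (adjusted p = 0.353 and 0.168). Without replicate 1 neither difference passed, with adjusted p values of 0.0831 for Cyp4a32 and 0.31 for Cyp4a14, and Cyp4a14 also failed without replicate 2 (0.111) or 4 (0.0516). Tested over the 7 times without a cosine, the interaction of regimen and time was called for Cyp4a32 (adjusted p = 0.0250) and not for Cyp4a14 (0.187), beside 38.9% of all genes.

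Within a group, animals that were high for one member were high for others. Deviations of each animal from its group mean, on the log2 scale, were compared over 56 libraries for the 15 pairs of members. Cyp4a10 and Cyp4a14 gave r = 0.964 and rho = 0.946, each with a permutation p of 1e-05, the smallest that 100000 permutations can give, and 2.50e-05 after Benjamini-Hochberg adjustment over the 15 pairs. The value was 0.941 within DRF, 0.973 within NRF and 0.954 without the 2 farthest libraries. Cyp4a10 with Cyp4a31 gave 0.914 and Cyp4a14 with Cyp4a31 0.910, and Cyp4a32 gave 0.805 with Cyp4a10, 0.770 with Cyp4a14 and 0.751 with Cyp4a31. Cyp4a14 has no 150-base window in common with Cyp4a10, so shared windows of that length were not present in the closest pair. Cyp4a10, Cyp4a31 and Cyp4a32 do share such windows, and the part of these in their correlations was not tested.

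The Cyp4a12 pair moved together as well, with r = 0.795 and rho = 0.683 (permutation adjusted p = 4.29e-05) and r = 0.689 without the 2 farthest libraries, and these genes share the most 150-base windows. Between this pair and the other 4 members r ran from 0.280 to 0.459. All points of these comparisons share library depth and scaling. At NRF ZT4 the 4 livers read 663, 372, 1192.0 and 608 scaled counts of Cyp4a10, and at NRF ZT12 1072.8, 515, 733 and 390. Cyp4a14 in the same animals read 358, 192, 798 and 376, and 604, 237, 294 and 163, so that the highest liver was the same in each group.

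**Figure D4:**
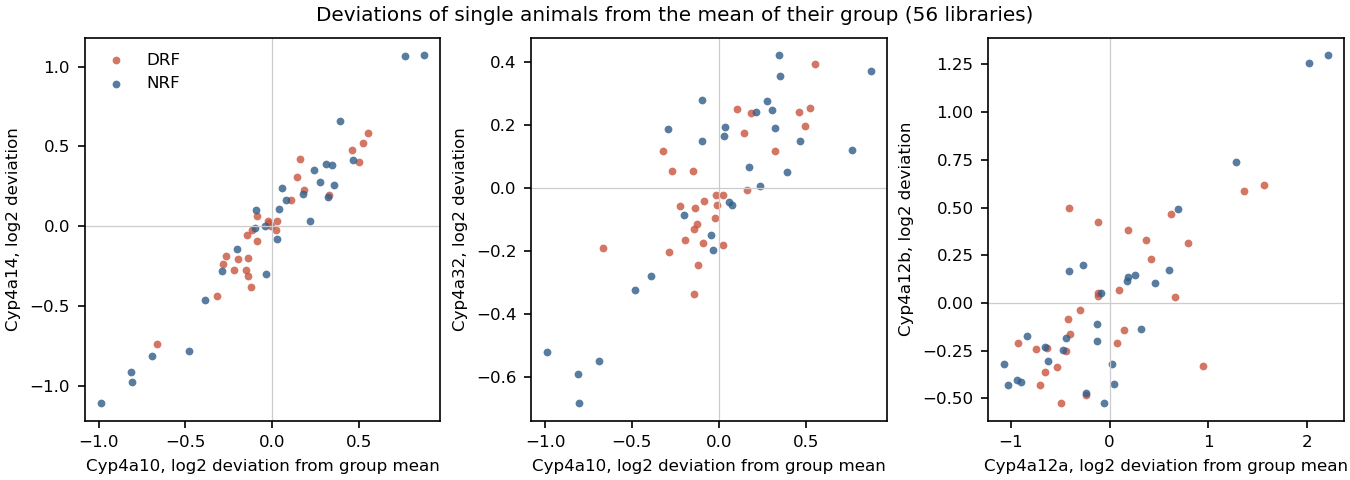
Deviation of single animals from the mean of their group in log2(scaled count + 1), for Cyp4a14 against Cyp4a10, Cyp4a32 against Cyp4a10 and Cyp4a12b against Cyp4a12a, with DRF and NRF animals in different colours (56 points a panel). The points of the first panel lie close to a line (r = 0.964) and those of the Cyp4a12 panel are spread with 2 NRF animals far out at the upper right.

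Those 2 animals carried the highest Cyp4a12 levels. In the replicate 1 liver of NRF ZT0, Cyp4a12a read 10.8 scaled counts against 0.377 to 1.77 in the other 3 livers, and Cyp4a12b read 3.05 against 0.179 to 0.356. In the replicate 3 liver of NRF ZT16, Cyp4a12a read 9.84 against 0.144 to 0.978 and Cyp4a12b 2.70 against 0.0879 to 0.140. Of 8 other sex-biased liver genes, chosen after their values were seen, 8 lay outside the range of the other 3 livers in the NRF ZT0 liver and 6 in the NRF ZT16 liver. By order alone a liver often lies outside the range of 3 others, and the share of all genes that did so was not counted. The 8 genes were picked from longer lists of sex-biased genes, so these counts are not read as a result. The NRF ZT16 liver is also the library that deviated most from its group over all genes. The male-biased Hsd3b5 was at 70.7 against 4.50 to 7.59 in the NRF ZT0 liver, and Slco1a1 was at 210 against 27.7 to 61.2 and, in the NRF ZT16 liver, at 124 against 44.7 to 51.8. The female-biased Sult2a1 was low, at 62.8 against 1623.2 to 2253.4 and at 295 against 2624.5 to 4893.7, as was Cyp3a16, at 0.387 against 43.1 to 206 and at 9.45 against 124 to 433. The male-biased Cyp7b1 was at 334 against 265 to 331 in the NRF ZT0 liver and within the range in the other, at 304 against 267 to 356, and the female-biased Cyp2b13 was low in the first, at 362 against 865 to 1106.0, and within the range in the other, at 1090.5 against 1021.0 to 1394.1.

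Across the 14 group means, the genes whose pattern was most like that of a member were named by Pearson's r among the 6678 genes with a mean of at least 10 scaled counts. For Cyp4a10 these were Cyp4a14 (r = 0.956), Retsat (0.943), Cyp4a31 (0.926), Oat (0.916) and Acadm (0.903), and for Cyp4a14 they were Cyp4a10, Retsat (0.940), Oat (0.909), Acadm (0.908) and Agt (0.906). Retsat saturates retinol, Oat is a mitochondrial aminotransferase of ornithine and Acadm oxidizes medium-chain fatty acids. Cyp4a32, in spite of its sequence, was at place 447 for Cyp4a10 with r = 0.526. The values are a description over 14 points that share libraries and scaling.

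PPARα targets of fatty acid oxidation and ketogenesis moved mostly in the direction of Cyp4a10 and Cyp4a14. Of 32 such genes 17 passed the test on the rhythm-adjusted mean, 16 higher under DRF and 1 lower, beside 6.98% of all genes, and the median difference was 0.18 against -0.00159 over all genes. By the rule that takes the smallest adjusted p for a rhythm difference, the named genes were Cpt1a, which admits fatty acids to mitochondria, Acot4, a peroxisomal thioesterase, Pdk4, a kinase that restrains pyruvate oxidation, and Slc27a2, which activates very long-chain fatty acids. Cpt1a was higher by 0.19 ± 0.06 (adjusted p = 0.0328, limma), while Acot4 differed by 0.24 ± 0.09 (adjusted p = 0.0848), Pdk4 by 0.20 ± 0.14 (0.437) and Slc27a2 by 0.12 ± 0.05 (0.126). Acadm (0.37), Ehhadh (0.38) and Acaa1b (0.49), enzymes of beta-oxidation, were also higher, and Fabp1, a fatty acid carrier, fell by 0.44 on the log2 scale (adjusted p = 0.0420). These were named after their values were seen. Without the library that stood apart, 16 of the 32 passed and Fabp1 did not, and without the replicate 1 libraries 10 passed.

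Most of these targets changed their rhythm. The rhythm difference was called for 22 of the 32, beside 39.1% of all genes, and no test compared the list with the members. Of the 16 targets rhythmic under both regimens, 13 had peaks 8 to 12 h apart, where 51.8% of the 5459 such genes in the table did so. The median shift of the 16 was 9.63 h, beside 8.20 h over those 5459 genes. Cpt1a peaked at ZT 23.07 h under DRF and ZT 10.98 h under NRF, 11.9 h apart, and averaged 166 ± 60.4 and 131 ± 61.8 scaled counts (SD, n = 28 each). Deviations of single animals were compared with those of Cyp4a10. The deviations of the 32 genes from their group means had a median r of 0.524 with those of Cyp4a10, beside 0.0285 over 6678 genes, and 17 of the 32 were over 0.5, beside 1.62% of those genes. Acot1 reached 0.798, Vnn1 0.786 and Acadm 0.769, all 3 chosen after their values were seen, and all libraries share depth and scaling.

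Of 9 other CYP4 genes, 2 passed the test on the mean, beside 6.98% of all genes, and 1 did without the replicate 1 or the replicate 4 libraries. Cyp4f15 was higher under DRF by 0.11 ± 0.03 (adjusted p = 0.0078, limma), and Cyp4f14, chosen after its value was seen, was lower by 0.30 on the log2 scale (adjusted p = 2.48e-04). The rhythm difference was called for 8 of the 9, beside 39.1% of all genes, led by Cyp4f15, Cyp4f39, Cyp4f17 and Cyp4v3. The peak of Cyp4f15 lay at ZT 23.4 h under DRF and ZT 10.4 h under NRF. The CYP4F and CYP4V enzymes hydroxylate fatty acids at the omega end too. The median shift of the 5 genes rhythmic under both regimens was 10.6 h, beside 8.20 h over the 5459 such genes tested. Of the 5 genes, 3 had peaks 8 to 12 h apart, beside 51.8% of the 5459.

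Steps after and beside omega-hydroxylation changed in part. Of 18 genes 8 passed on the mean, beside 6.98% of all genes, 7 higher under DRF and 1 lower, and 5 passed without the replicate 1 libraries. In all, 11 of 18 were called for a rhythm difference, beside 39.1% of all genes. Aldh3a2, which oxidizes fatty aldehydes, was higher by 0.34 ± 0.05 (log2, SE; adjusted p = 6.22e-07, limma), and Por, the electron donor of these hydroxylases, by 0.19 ± 0.06 (adjusted p = 0.0242). Crot, a peroxisomal carnitine acyltransferase, differed by -0.11 ± 0.08 (adjusted p = 0.461) and Adh1, an alcohol dehydrogenase, by 0.00 ± 0.05 (adjusted p = 0.988). Por peaked at ZT 0.41 h under DRF and ZT 13.1 h under NRF.

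Most transcriptional regulators changed their rhythm. Of 21, 18 were called for the rhythm difference, beside 39.1% of all genes, and 4 passed on the mean, 3 higher and 1 lower, beside 6.98%. Ppara itself averaged 240 ± 79.1 scaled counts under DRF and 201 ± 76.7 under NRF (SD, n = 28 each), with a difference in rhythm-adjusted mean of 0.11 ± 0.06 (log2, SE) that did not pass (adjusted p = 0.369, limma), and its fitted peak lay at ZT 23.32 h under DRF and ZT 11.01 h under NRF. Ppard, a related receptor, was lower under DRF by 0.41 on the log2 scale (adjusted p = 0.00243), and its peak lay at ZT 10.1 h under DRF and ZT 22.1 h under NRF. The clock repressors Nr1d2 and Nr1d1 differed by 0.49 ± 0.09 (adjusted p = 4.97e-05) and 0.32 ± 0.16 (adjusted p = 0.242).

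The Cyp4a12 pair, male-biased itself, did not pass, while other male-biased genes did. Of 14 other male-biased liver genes 8 passed on the rhythm-adjusted mean, all lower under DRF, and of 17 female-biased genes 9 passed, 7 higher and 2 lower. Of all genes 6.98% passed. Hsd3b5 fell by 2.14 and Slco1a1 by 1.86 on the log2 scale, both chosen after their values were seen. The genes named by the rule, which takes the smallest adjusted p for the rhythm difference, were Nudt7, Elovl3, Cyp2d9 and Mup20 among the male-biased and Fmo2, Acot3, Cux2 and Prom1 among the female-biased. In the whole lists the rhythm difference was called for 2 of 14 male-biased and 9 of 17 female-biased genes, beside 39.1% of all genes. Without the 2 livers of highest Cyp4a12a, the counts for the rhythm-adjusted mean were 8 of 14 male-biased genes, all lower, and 8 of 17 female-biased genes, 6 higher and 2 lower. Cyp4a12a then differed by 0.38 (log2; adjusted p = 0.262, limma) and Cyp4a12b by 0.15 (adjusted p = 0.419). In the same fit Cyp4a12b at ZT20 and Cyp4a12a at DRF ZT20 against NRF ZT8 passed with DRF higher, by 0.68 and 1.32 (adjusted p = 0.0491 and 0.0376), and Cyp4a10 at ZT4 did not (0.0511). In the main fit these Cyp4a12 differences were the same and did not pass (adjusted p = 0.183 and 0.120, limma). The livers left out were chosen by their Cyp4a12a level and belong to neither comparison, so these Cyp4a12 calls are not read as a result. At ZT20 Cyp4a12b averaged 1.02 scaled counts under DRF and 0.245 under NRF, so low that 0.68 is a compressed difference. Over the alternatives that difference ran from 0.1 to 2.69.

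Within the genes, single annotated transcripts carried most of the signal. Cyp4a14-201 held 99.9% of its gene, Cyp4a32-201 95.2% and Cyp4a31-202 85.5%. For Cyp4a10 the first transcript, Cyp4a10-201, held 78.6% and Cyp4a10-202 held 21.4%, and their ratios of DRF to NRF were 1.60 and 1.59. Transcript values were recovered with less certainty than gene values, since between 69.1% and 74.9% of genes with a single transcript fell within 2% of the fitted curve in a library.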

How the data were processed

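Liver RNA of 56 female mice was sequenced as ribosome-depleted, strand-specific libraries with 150-base paired reads, although the labels also name polyA RNA. The submitters' processing notes name CASAVA 1.8, featureCounts 1.5.0-p3 and the builds mm10 and GRCm38.p6, and the aligner, the use of strand and the handling of reads with several matches are not given in the sources used here. The deposited gene values are a score named TPM by the authors, with totals from 995319.9 to 997989.8 per library. Multiplied by exon length they followed the logarithm of 1 plus a scaled count, so the scaled counts were recovered with exon lengths of the GENCODE annotation, and recovered counts were whole (within 0.05) for 22497 of 24223 annotated genes. In 4 ranges of size, between 96.5% and 99.0% of held-out values were whole on average, where chance gives 10%. Genes that were not recovered, 1369 of 25415 listed, were left out, and the deposited transcript values, also a score, were treated alike. Recovered counts of 325528867 to 731336387 per library, or 169417770 to 395244315 without the 118 genes too abundant to be judged whole, exceed the stated depth, so no count model was used, and intervals that rest on counts cover counting error only.

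This unit was not the one assumed when the tests were planned. Tests were limma 3.58.1 in R 4.3.3, with moderated variances and a mean-variance trend, on log2(scaled count + 1) of the 24046 genes whose deposited values averaged at least 0.1, with Benjamini-Hochberg adjustment over all of them and a threshold of 0.05. Rhythm was a 24-h cosine per regimen, differences in rhythm and rhythm-adjusted mean came from a joint cosine fit, and contrasts at single or matched times from the means of 14 groups. On simulated data 98% of 200 genes given a DRF cosine of 1 on the log2 scale, peak to trough, were recovered among 24046 genes. Of 200 genes raised by 0.5 on that scale in rhythm-adjusted mean, 96.5% were recovered. Changed genes were drawn from those with a mean above 1 on that scale, which leaves out Cyp4a12b. The members' fitted distances were smaller, from 0.37 to 0.61 under DRF and from 0.19 to 0.70 under NRF. Recovery at those sizes was not simulated. Correlations between animals used 100000 permutations. The members, lists and tests were chosen with earlier results of these data known. In each list the 4 genes with the smallest adjusted p for the rhythm difference were named, and the 5 genes of highest likeness to Cyp4a10 and Cyp4a14. Alternatives were the deposited scale, other scaling, pseudocounts and filters, removal of a length trend, leaving out replicates, libraries or ZT24, a replicate block and other tests of rhythm. The minimum of 0.1 removed none of the recovered genes, so the fit without a filter repeats the main fit. Cyp4a promoters and proteins were not analysed here. 1 gene of the lists is not reported here by name.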

Additional observations from a re-analysis of the deposited data

Results flagged for a closer look

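The 6 genes in 14 groups of 4 animals give 84 sets of 4 values, which are not independent, since the genes correlate between animals. In 14 of these sets 1 liver lay far from the other 3, with a gap to its nearest neighbour beyond Dixon's critical value for groups of 4. Chance gives this in about 1 of 20 sets of normally distributed values. The gap was taken on scaled counts without a logarithm, and the low Cyp4a12 values are skewed, so that rate need not hold here. The values are scaled counts. For Cyp4a10 these were the DRF ZT20 replicate 2 liver, at 1753.2, and the NRF ZT8 replicate 3 liver, at 363 and low. Cyp4a31 departed in the same livers, at 45.6 and 15.0, and Cyp4a32 was low in the NRF ZT20 replicate 1 liver, at 19.0.

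Cyp4a12a was high in 4 livers, at 7.31 in DRF ZT12 replicate 2, 4.88 in DRF ZT24 replicate 1, 10.8 in NRF ZT0 replicate 1 and 9.84 in NRF ZT16 replicate 3. Cyp4a12b was high at 3.05 in NRF ZT0 replicate 1, 0.813 in NRF ZT8 replicate 4, 1.14 in NRF ZT12 replicate 1 and 2.70 in NRF ZT16 replicate 3, and low at 0.114 in NRF ZT24 replicate 1. The NRF ZT16 replicate 3 library, high for both genes, also deviated most from its group over all genes.

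The 24-h rhythm differed between the regimens, by the test of the difference itself, for Cyp4a32 (adjusted p = 0.0034) and Cyp4a14 (adjusted p = 0.0325, limma). That is 2 of 6 members, where 39.1% of all genes were called. Without the replicate 1 libraries neither passed (adjusted p = 0.0831 and 0.31, limma). In the F test over the 7 times Cyp4a14 did not pass (adjusted p = 0.187).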

How the results depend on the processing

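The difference in rhythm-adjusted mean of Cyp4a10, Cyp4a14 and Cyp4a31 was above 0 and past the threshold in all 15 alternatives, with adjusted p values (limma) from 7.13e-06 to 0.00288, from 6.11e-07 to 3.82e-04 and from 3.29e-04 to 0.0444. Among these 15, the fit without a filter had the same genes as the main fit and could not differ from it. No called result changed sign. The rhythm of Cyp4a14 under DRF had an adjusted p of 0.173 in the F test over 7 times, 0.0715 in the exact Kendall test and 0.0238 to 0.354 without a replicate or library. Under DRF the rhythm of Cyp4a31 passed in the F test (0.0239) and without ZT24 (0.0126), and that of Cyp4a10 on the deposited scale (0.0219). That of Cyp4a32 under DRF was 0.0571 in the Kendall test and 0.0239 to 0.307 without a replicate or library. The rhythm difference of Cyp4a14 was 0.0936 on the deposited scale, 0.187 in the F test and 0.0228 to 0.31 without a replicate or library, and that of Cyp4a32 was 0.00248 to 0.0831. Fewer samples enter the fits without a replicate, and the cause of the other changes was not tested.

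Over all genes, 1678 were called for the rhythm-adjusted mean and 740 to 1519 without a replicate or library. The 10 calls of members at single times became 2 to 11. On the deposited scale 0 of the 3 calls at matched hours remained and 5 others were made. With the length trend removed the 3 remained and 2 were added, among genes with a mean of at least 1 scaled count, which leaves out Cyp4a12b, the 3 remained and 4 were added to make 7, and without a replicate there were 0 to 6. ZT24 against ZT0 gave 2 calls in place of 0 on the deposited scale, for Cyp4a10 and Cyp4a14 under NRF. Over all genes, DRF ZT0 against NRF ZT12 called 682 and DRF ZT12 against NRF ZT24 374, and 335 and 172 on the deposited scale. With the length trend removed DRF ZT4 against NRF ZT16 called 9442 in place of 3675, DRF ZT8 against NRF ZT20 8371 in place of 2908 and DRF ZT20 against NRF ZT8 8209 in place of 4066. ZT24 against ZT0 called 782 under DRF and 2000 under NRF, 1912 and 6096 on the deposited scale and 5701 and 7407 with the length trend removed. Without 1 replicate these counts at single or matched times fell by up to 6.56 times for pairs between regimens and 10.8 times within a regimen.

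The replicate number was treated as a label. Libraries that share a number deviated from their group means with a mean correlation of 0.004, against -0.001 for other pairs. Single pairs with the same number ran from -0.387 to 0.308, and 37 of 364 pairs were over 0.1. A mean over all pairs cannot show whether some groups shared a batch. With the replicate block 1680 genes were called for the mean, the 10 member calls at single times became 9, without Cyp4a10 at ZT4, and the 3 at matched hours became 2, without Cyp4a14 at DRF ZT0 against NRF ZT12 (0.0506).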
